A study of Mus musculus with 23 samples.

Results

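Transforming growth factor beta (TGF-beta) signalling was read at the transcript level in mouse endometrium through 10 genes: the ligands Tgfb1, Tgfb2 and Tgfb3, the receptors Tgfbr1, Tgfbr2 and Tgfbr3, the latent binding proteins Ltbp1, Ltbp2 and Ltbp3, and the response gene Ccn2. They were picked by name from the 18682 features of a table of read counts, and all 10 were found through their Ensembl identifiers. The libraries were bulk RNA from the endometrium of 23 uterine horns of female C57BL/6 mice, with the tissue pressed out of each horn and away from the myometrium by hand. In the PBS group (5 horns) the uterus had been damaged with 70 degree ethanol and received saline 4 days later. In the HG group (6 horns) the same damage was followed by a hydrogel, and in the HG+ORG group (6 horns) by the hydrogel carrying human endometrial organoids, which are cultured gland-like structures. A SHAM group (6 horns) completed the set, and the sources used here do not describe its treatment. Tissue was taken 2 weeks after injection. The damage is used as a model of intrauterine scarring, and the organoids are of human origin in a mouse host. Horns are named below by their group and the number in their label, from SHAM 1 to HG+ORG 23. Fewer mice than horns were taken for all analyses of the study, and the labels do not tie horns to mice, so some horns may share an animal and the p-values measure only the spread between these horns.

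TGF-beta ligands are secreted as inactive complexes in which the mature cytokine is held by its own propeptide and tied to the matrix by a latent TGF-beta binding protein. After release, a ligand binds the type II receptor (Tgfbr2), which phosphorylates the type I receptor (Tgfbr1), and SMAD proteins carry the signal to the nucleus. Betaglycan (Tgfbr3) is a co-receptor that presents ligand, above all TGF-beta 2, and also takes up inhibin. In the uterus this pathway is known for its part in stromal growth, decidualization, repair after tissue loss and fibrosis.

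The hydrogel group had the highest median of Tgfbr3, Tgfb2 and Ccn2 and the lowest median of Tgfbr1 and Ltbp2 among the 4 groups. Tgfbr3 stood at a median of 46.9 CPM in HG horns, against 6.11 in SHAM, 5.86 in PBS and 4.77 in HG+ORG. CPM are read counts scaled to the library size multiplied by the horn's TMM normalization factor. The lowest factors, 0.702 in HG+ORG 18 and 0.756 in SHAM 3, raise the CPM of those horns. Tgfb2 stood at 9.16 CPM in HG, against 1.43 in SHAM, 3.24 in PBS and 1.95 in HG+ORG. Tgfbr2 and Ltbp3 were close to level across the groups. None of the 10 genes passed the adjusted threshold of 0.05 in edgeR's quasi-likelihood test in any of the 6 comparisons between groups, and neither did any other gene. DESeq2, run on the same counts, placed Tgfbr3 and Tgfb2 past that threshold between HG and SHAM, and Tgfbr3 also between HG+ORG and HG.

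The promoters of Tgfb1 and Tgfb2 are shown because Tgfb1 stood out in 1 horn, while Tgfb2 differed widely between and within groups. Over the 23 horns the 2 had a Spearman rho of 0.54. Whether the promoter letters bear on these values was not tested. Of the 10 genes, 7 had an entry in RefSeq's promoter table of build GRCm38.p6; Tgfb3, Tgfbr3 and Ccn2 had none. The 250 bases before the transcript start are written in the direction of the gene, with Tgfb1 at chr7:25686752-25687001 on the plus strand and Tgfb2 at chr1:186705990-186706239 on the minus strand. Capitals mark the GC box (GGGCGG or its reverse complement), the E-box (CACGTG) and the TATA box (TATAAA).
Tgfb1: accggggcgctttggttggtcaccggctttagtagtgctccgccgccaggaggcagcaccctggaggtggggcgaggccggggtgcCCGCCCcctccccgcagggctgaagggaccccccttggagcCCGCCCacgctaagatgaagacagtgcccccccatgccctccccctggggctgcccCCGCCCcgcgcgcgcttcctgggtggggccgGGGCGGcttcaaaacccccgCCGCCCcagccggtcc
Tgfb2: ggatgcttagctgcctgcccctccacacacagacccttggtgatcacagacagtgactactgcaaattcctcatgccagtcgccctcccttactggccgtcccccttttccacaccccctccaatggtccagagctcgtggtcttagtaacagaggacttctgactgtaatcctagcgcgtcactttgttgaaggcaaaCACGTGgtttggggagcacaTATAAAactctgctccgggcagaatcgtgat
The Tgfb1 window held 5 GC boxes, none of the other motifs searched, and 75.2% G and C. The Tgfb2 window held 53.6% G and C, 1 E-box 51 to 46 bases before the start and 1 TATA box 31 to 26 bases before it. Over the 32851 promoters of the table, searched on both strands, 32.7% held a GC box, 6.02% the E-box and 12.4% the TATA box, and the median G and C content was 52.4%. The AP-1 motif TGANTCA, the CRE motif TGACGTCA, the TEAD motif GGAATG and the SMAD motifs GTCTAGAC and GGCGCC were searched too, and 6.75%, 1.55%, 12.6%, 0.167% and 9.59% of promoters held them. A CRE stood in 1 of the Ltbp1 windows and a GGCGCC in 1 of the Tgfbr1 windows. The motifs searched do not overlap with each other in the 2 windows printed, and a match describes letters, not binding.

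Library totals ran from 7920918 to 14902952 counts. Epithelial markers (Epcam, Cdh1, keratins and claudins, 7 genes) summed to between 3724 and 11895 CPM in 22 horns and to 830 in HG+ORG 18. That horn also held 21171 CPM of 8 macrophage markers, against at most 2022 in any other horn. Endometrial stroma markers (8 genes, among them Pdgfra, Dcn, Hoxa10 and Pgr) summed to 417 to 1259 CPM in SHAM, 488 to 3807 in PBS, 667 to 3791 in HG and 333 to 9504 in HG+ORG. Such a sum follows the most abundant markers and can part from the mean log2 CPM of the list. PBS 8 summed to 1115 CPM, above the SHAM median of 525. Its mean log2 CPM over the list was 1.79, against 3.80 in the lowest SHAM horn. The labelled tissue was endometrium without its muscle, yet 9 smooth muscle markers were present in every library, at 39.9 to 79.2 CPM in SHAM, 19.3 to 1001 in PBS, 60.0 to 2049 in HG and 23.0 to 249 in HG+ORG. Of the smooth muscle markers only Myocd, a muscle transcription factor, was at 0 counts in any horn, in 9 of them. In such bulk samples, fewer cells of a type and less RNA per cell cannot be told apart.

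Per kilobase of exon, the signalling receptors were the most abundant of the 10 transcripts. Tgfbr2 had a median over 23 horns of 19.7 CPM per kb and Tgfbr1 one of 17.4. Ccn2 (8.06) and Ltbp3 (6.95) came next on that scale. Tgfb1 (3.40), Ltbp2 (3.08), Tgfb3 (2.35), Ltbp1 (2.00) and Tgfbr3 (1.51) followed, and Tgfb2 was the lowest at 0.374 CPM per kb. The order puts both kinase receptors above every ligand. Neighbours in this order, such as Tgfbr2 and Tgfbr1 or Tgfb3 and Ltbp1, had ranges over horns that overlapped. How far a transcript varied followed no such order. The highest horn exceeded the lowest 2.69-fold for Tgfbr2, 3.20-fold for Tgfbr1, 3.29-fold for Ltbp3 and 5.77-fold for Ltbp1. The same ratio was 41.2 for Tgfbr3, 63.8 for Tgfb3, 73.3 for Tgfb1 and 240 for Ccn2. Tgfb2 and Ltbp2 fell to 2 counts in their lowest horn, PBS 8 and HG 14, so their ratio is not given.

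**Figure D1:**
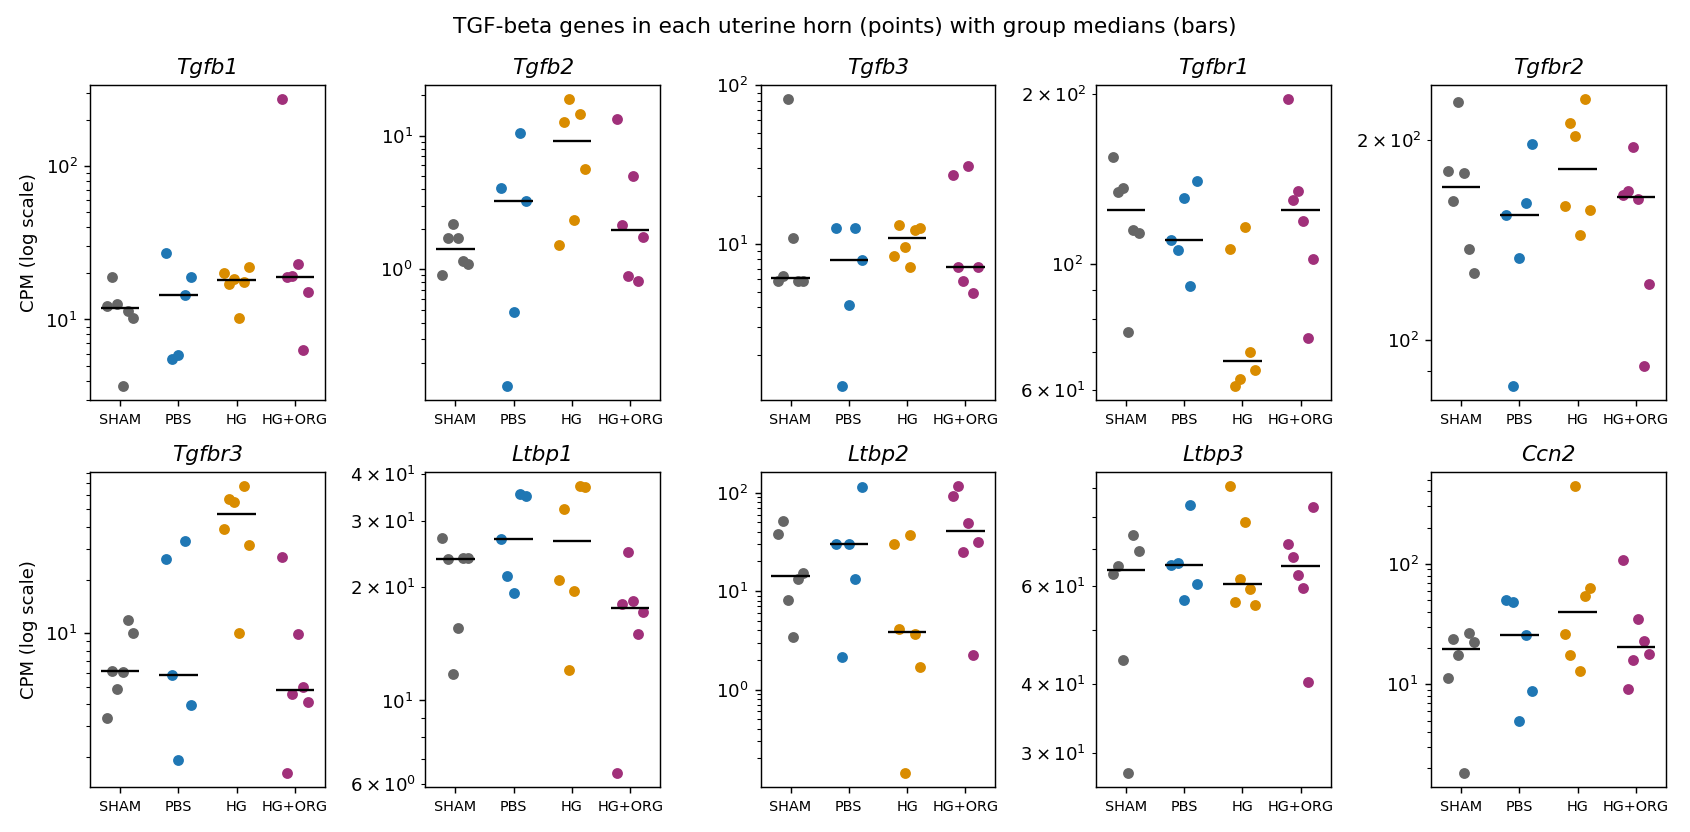
CPM, counts scaled to TMM-adjusted library size (log axis), of the 10 genes in each uterine horn (points) by group, with group medians as bars. The median of Tgfbr3 is highest in HG, whose horns span 10.1 to 67.7 CPM and overlap with each other group. Single horns stand far off for Tgfb1 (HG+ORG 18), Tgfb3 (SHAM 3) and Ccn2 (HG 14).

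Among the ligands, Tgfb1, the isoform most tied to immune cells and fibrosis, was low apart from 1 horn. SHAM horns held 3.70 to 19.0 CPM of it with a median of 11.8, and HG horns 10.2 to 21.8 with a median of 18.0. The PBS horns 7 to 11 held 27.0, 5.52, 5.87, 14.5 and 18.9 CPM. HG+ORG horns held 6.30 to 272 CPM with a median of 19.0. The value of 272 belonged to HG+ORG 18, the horn with the high macrophage markers, and the other 5 HG+ORG horns lay between 6.30 and 22.9, inside the span of the other groups. Tgfb1's fitted log2 fold was 2.35 (SE 0.71) for HG+ORG against SHAM, with an adjusted p of 0.226 by edgeR. Without HG+ORG 18 the same log2 fold was 0.50, that against PBS went from 2.03 to 0.19, and that against HG went from 1.75 to -0.11. DESeq2 gave no p-value for Tgfb1 in any comparison.

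Tgfb2 was the scarcest ligand, and it was higher in most of the hydrogel horns than in any SHAM horn. SHAM horns held 0.905 to 2.17 CPM with a median of 1.43. The PBS horns 7 to 11 held 4.03, 0.135, 0.483, 10.5 and 3.24 CPM, so that 3 lay above all SHAM horns and 2 below all of them. HG horns held 1.52 to 18.7 CPM with a median of 9.16, and HG+ORG horns 0.816 to 13.2 with a median of 1.95. In the HG group 5 of 6 horns exceeded every SHAM horn, the exception being HG 12 at 1.52. Tgfb2's fitted log2 fold between HG and SHAM was 2.65 (SE 0.84), with an adjusted p of 0.257 by edgeR and 0.0431 by DESeq2. The DESeq2 call held in 11 of 23 fits that each left out 1 horn, and its adjusted p reached 0.212 without HG 14. With a smooth muscle marker score as a covariate the edgeR log2 fold was 0.93. Between HG+ORG and HG the log2 fold was -1.23 (SE 0.80), with an adjusted p of 0.708 by edgeR, and with that covariate it turned to 0.30.

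Tgfb3, an isoform known for repair with little scarring, had log2 folds against SHAM whose sign depended on 1 horn. SHAM horns held 5.81 to 81.6 CPM with a median of 6.08, the value of 81.6 being that of SHAM 3. The PBS horns 7 to 11 held 12.6, 1.28, 4.10, 12.6 and 7.95 CPM. HG horns kept within 7.19 to 13.1 CPM with a median of 10.9, and HG+ORG horns lay at 4.89 to 30.9 with a median of 7.18. The 2 highest HG+ORG horns were 21 at 30.9 and 18 at 27.1 CPM, and the other 4 lay at 4.89 to 7.19, level with or under the lowest HG horn. Tgfb3's log2 folds against SHAM were -1.33 for PBS, -0.88 for HG and -0.49 for HG+ORG, with adjusted p of 0.678 or more by edgeR. Without SHAM 3 all 3 changed sign, to 0.15, 0.61 and 1.01.

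Counts of one ligand over another within a horn do not depend on the library scaling. The log2 ratio of Tgfb2 to Tgfb1 counts was on average -2.90 ± 0.97 (SD, n = 6) for the SHAM horns and -2.95 ± 1.77 (n = 5) for the PBS horns. It was -1.42 ± 1.44 (n = 6) for HG and -3.37 ± 0.87 (n = 6) for HG+ORG. HG 14, with 261 Tgfb2 and 258 Tgfb1 counts, was the only horn in which Tgfb2 was not the lower count. The log2 ratio of Tgfb3 to Tgfb1 averaged -0.03 ± 1.73 in SHAM, -1.04 ± 0.74 in PBS, -0.74 ± 0.33 in HG and -1.24 ± 1.28 in HG+ORG, and ran from -3.32 in HG+ORG 18 to 2.69 in SHAM 3. Lengths differ between the genes, so these ratios compare horns and not the abundance of the proteins.

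Among the receptors, Tgfbr3 differed most between groups. SHAM horns held 3.32 to 11.8 CPM with a median of 6.11, and the PBS horns 7 to 11 held 26.3, 5.86, 1.93, 33.2 and 3.94. HG horns held 10.1 to 67.7 CPM with a median of 46.9, and HG+ORG horns 1.64 to 27.0 with a median of 4.77. All HG horns but HG 15 (10.1 CPM) exceeded every SHAM horn and every HG+ORG horn, and HG 15 lay among the upper SHAM values. Of the 6 HG horns, 4 exceeded every PBS horn. Tgfbr3's log2 fold between HG and SHAM was 2.62 (SE 0.69), with an adjusted p of 0.248 by edgeR and 0.0157 by DESeq2. Between HG+ORG and HG it was -2.33 (SE 0.68), with an adjusted p of 0.270 by edgeR and 0.0405 by DESeq2. Against PBS the HG horns had a log2 fold of 1.61 (SE 0.71), with an adjusted p of 0.991 by edgeR. For a difference among the groups in any direction, Tgfbr3 had an adjusted p of 0.158 by edgeR and 0.0144 by DESeq2.

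The Tgfbr3 calls depended on the method and, for DESeq2, on single horns. Over 23 edgeR fits that each left out 1 horn, the log2 fold of HG against SHAM ran from 2.45 to 2.84 and that of HG+ORG against HG from -3.13 to -2.11. DESeq2 called the first in 20 of 23 such fits, losing it without SHAM 1 (adjusted p 0.0713), HG 14 or HG 16, and the second in 11 of 23, with an adjusted p of up to 0.140. It called the any-group difference in 21 of 23, losing it without HG 14 or HG 16. With the smooth muscle score as a covariate the edgeR log2 fold was 1.49 between HG and SHAM and -1.37 between HG+ORG and HG.

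Tgfbr1, the type I kinase receptor, showed the opposite pattern at a much higher level. SHAM horns held 75.9 to 154 CPM with a median of 125, and the PBS horns 7 to 11 held 110, 106, 131, 91.5 and 140. HG horns held 61.1 to 117 CPM with a median of 67.6, and HG+ORG horns 74.2 to 195 with a median of 125. In 4 HG horns (13, 14, 16 and 17) the value, at 61.1 to 70.0 CPM, lay below every horn of the other groups, whereas HG 12 at 106 and HG 15 at 117 lay among them. Tgfbr1's log2 fold was -0.60 (SE 0.22) for HG against SHAM, -0.53 (SE 0.23) for HG against PBS and 0.65 (SE 0.22) for HG+ORG against HG. By edgeR the adjusted p were 0.293, 0.991 and 0.284, and DESeq2 called none of them. PBS and HG+ORG differed from SHAM by log2 folds of -0.07 (SE 0.23) and 0.05 (SE 0.22).

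Tgfbr2, the type II kinase receptor that binds ligand first, was the steadiest of the 10 genes. SHAM horns held 126 to 227 CPM with a median of 170, the PBS horns 7 to 11 held 154, 85.5, 133, 161 and 197, HG horns held 144 to 230 with a median of 181, and HG+ORG horns 91.6 to 195 with a median of 164. The groups overlapped in every comparison. Its log2 folds ran from -0.29 (SE 0.20, HG+ORG against HG) to 0.33 (SE 0.21, HG against PBS), with adjusted p of 0.753 or more by edgeR.

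Among the latent binders, Ltbp1, which tethers the latent complex to fibronectin and fibrillin matrix, was lowest in the organoid group. SHAM horns held 11.8 to 27.0 CPM with a median of 23.8, and the PBS horns 7 to 11 held 26.8, 21.3, 19.3, 35.4 and 34.8. HG horns held 12.0 to 37.1 CPM with a median of 26.5, and HG+ORG horns 6.44 to 24.8 with a median of 17.6. HG+ORG 18, with its 6.44, was the lowest of all 23 horns. Ltbp1's log2 folds for HG+ORG were -0.73 (SE 0.31) against PBS and -0.67 (SE 0.30) against HG, with adjusted p of 0.795 and 0.474 by edgeR. Without HG+ORG 18 they were -0.57 and -0.52.

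Ltbp2, a family member that binds fibrillin but not TGF-beta itself, ranged most widely. SHAM horns held 3.46 to 51.6 CPM with a median of 14.3, and the PBS horns 7 to 11 held 30.1, 2.16, 30.4, 13.3 and 115. HG horns held 0.143 to 37.3 CPM with a median of 3.87, and HG+ORG horns 2.22 to 117 with a median of 40.4. Every group had both low and high horns. Ltbp2's log2 fold between HG+ORG and HG was 2.05 (SE 1.02), with an adjusted p of 0.532 by edgeR, and between HG and PBS it was -1.58 (SE 1.04), with an adjusted p of 0.991.

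Ltbp3, which is secreted together with TGF-beta, was level. SHAM horns held 27.6 to 74.0 CPM with a median of 64.1, the PBS horns 7 to 11 held 65.3, 65.9, 56.6, 83.9 and 60.5, HG horns held 55.5 to 90.8 with a median of 60.4, and HG+ORG horns 40.3 to 83.3 with a median of 65.1. The 6 log2 folds lay between -0.06 and 0.22, each with an SE of 0.21 or 0.22, and the adjusted p by edgeR were 0.729 or more.

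Ccn2 encodes connective tissue growth factor, a matricellular protein induced by TGF-beta and by mechanical load. SHAM horns held 1.85 to 26.7 CPM with a median of 19.8, and the PBS horns 7 to 11 held 50.2, 47.9, 4.99, 25.7 and 8.80. HG horns held 13.0 to 444 CPM with a median of 40.0, and HG+ORG horns 9.18 to 108 with a median of 20.5. The 444 CPM of HG 14 and the 108 of HG+ORG 18 were the highest, and the remaining 5 HG horns lay at 13.0 to 63.3. Ccn2's log2 fold between HG and SHAM was 2.58 (SE 0.86), with an adjusted p of 0.265 by edgeR, and without HG 14 it was 1.01. Without that horn the log2 fold of HG against PBS went from 1.90 to 0.34 and that of HG+ORG against HG from -1.57 to 0.00.

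Read as comparisons, the PBS horns against the SHAM horns ask what the damage left behind with saline alone. There 0 of 10 genes were called by edgeR and 0 at an unadjusted p under 0.05, where 0% and 2.17% of 17708 genes were (1.52% higher and 0.655% lower in PBS). DESeq2 called 0 of the 9 to which it gave a p, and 0.00575% of the genes to which it gave a p. Fitted folds were above 0 for 7 of 10 genes, against 53.6% of all genes, with a median log2 fold of 0.35 over the 10 and 0.02 over all. For HG against SHAM, 4 of 10 genes (Tgfb2, Tgfbr1, Tgfbr3 and Ccn2) had an unadjusted p under 0.05 in edgeR, as had 11.3% of all genes, and 0 passed adjustment. Of the 4, 3 were higher in HG, as were 9.15% of all genes, and Tgfbr1 was lower, as were 2.12%. DESeq2 called 2 of 9 there and 1.62% of the genes it gave a p. Again 7 of 10 folds were above 0, against 50.2% of all genes, and the medians were 0.28 and 0.00.

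For HG+ORG against SHAM, Tgfb1 alone of the 10 had an unadjusted p under 0.05 in edgeR, against 9.91% of all genes (8.09% higher and 1.82% lower in HG+ORG), and edgeR called 0 of the 10. DESeq2 called 0 of the 9 to which it gave a p, which leaves out Tgfb1, and 0.487% of all genes with one. Folds were above 0 for 7 of 10 genes and 56.3% of all genes, with medians of 0.23 and 0.06. Without HG+ORG 18 they were above 0 for 5 of 10, the median was -0.0038 and 0 of the 10 had an unadjusted p under 0.05. For HG against PBS, 3 of 10 (Tgfbr1, Tgfbr3 and Ccn2) had an unadjusted p under 0.05, against 3.37% of all genes. Tgfbr3 and Ccn2 were higher, as were 2.38% of genes, and Tgfbr1 was lower, as were 0.988%. The 3 became 0 without PBS 9, PBS 11 or HG 14 and 1 without HG 13 or HG 16. For HG+ORG against PBS 2 of 10 had such a p, against 6.09% of all genes, Tgfb1 being higher, as were 4.86%, and Ltbp1 lower, as were 1.23%. The 2 became 1 without PBS 10, PBS 11 or HG+ORG 18. Folds were above 0 for 7 of 10 genes in each, where 53% and 55.3% of all genes had one above 0. Without HG+ORG 18 it was 4 of 10 for HG+ORG against PBS. In neither of these comparisons did edgeR or DESeq2 call any gene of the table.

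The effect of the organoids is addressed by HG+ORG against HG. There 4 of 10 genes (Tgfb1, Tgfbr1, Tgfbr3 and Ltbp1) had an unadjusted p under 0.05 in edgeR, against 9.81% of all genes, and 0 were called after adjustment. Tgfb1 and Tgfbr1 were higher, as were 5.18% of genes, and Tgfbr3 and Ltbp1 were lower, as were 4.63%. DESeq2 called 1 of 9, Tgfbr3, and 0.932% of the genes it gave a p. Folds were above 0 for 4 of 10 genes and 55.7% of all genes, with medians of -0.18 and 0.04. Without HG+ORG 18 the Tgfb1 log2 fold went from 1.75 to -0.11. In that edgeR fit 1 of the 10 was higher and 3 were lower at an unadjusted p under 0.05, against 12% of all genes in either direction. Folds above 0 were then 3 of 10, against 51.1% of all genes, and the median over the 10 was -0.22. The comparisons share groups, so their counts are not independent. In the test for any difference among the groups, 5 of 10 genes had an unadjusted p under 0.05 in edgeR and 10.1% of all genes had, with 0 called, while DESeq2 called Tgfbr3 and 1.6% of the genes. limma-voom called 0 genes of the table in every comparison. None of the 10 genes had groups free of overlap in any comparison; such genes made up 0.294% of all genes between PBS and SHAM, 1.43% between HG and SHAM, 0.164% between HG+ORG and SHAM, 0.152% between HG and PBS, 0.107% between HG+ORG and PBS and 0.181% between HG+ORG and HG.

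**Figure D2:**
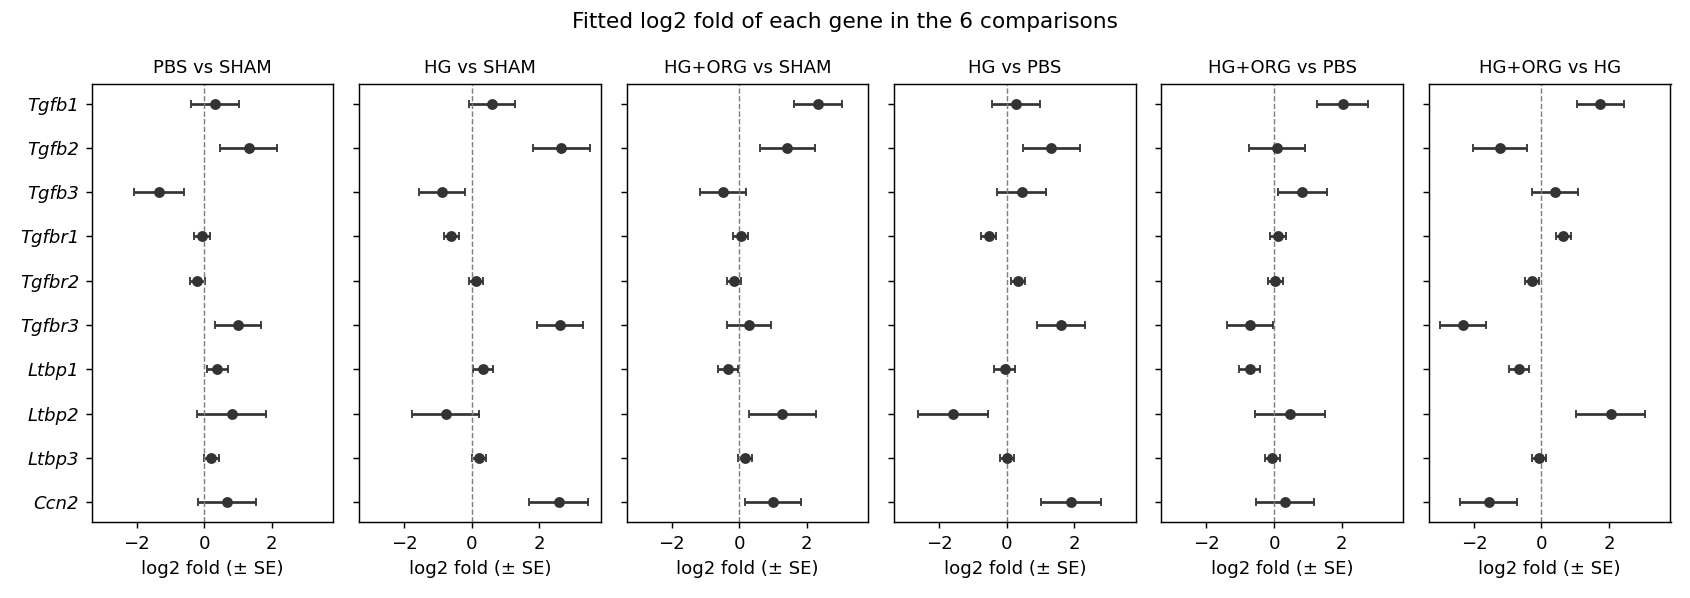
Fitted log2 fold (point) with its SE (bar) of each of the 10 genes in the 6 comparisons between groups. HG against SHAM shows log2 folds of 2.65 for Tgfb2, 2.62 for Tgfbr3 and 2.58 for Ccn2, and Tgfbr2 and Ltbp3 stay near 0 in all 6.

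**Figure D3:**
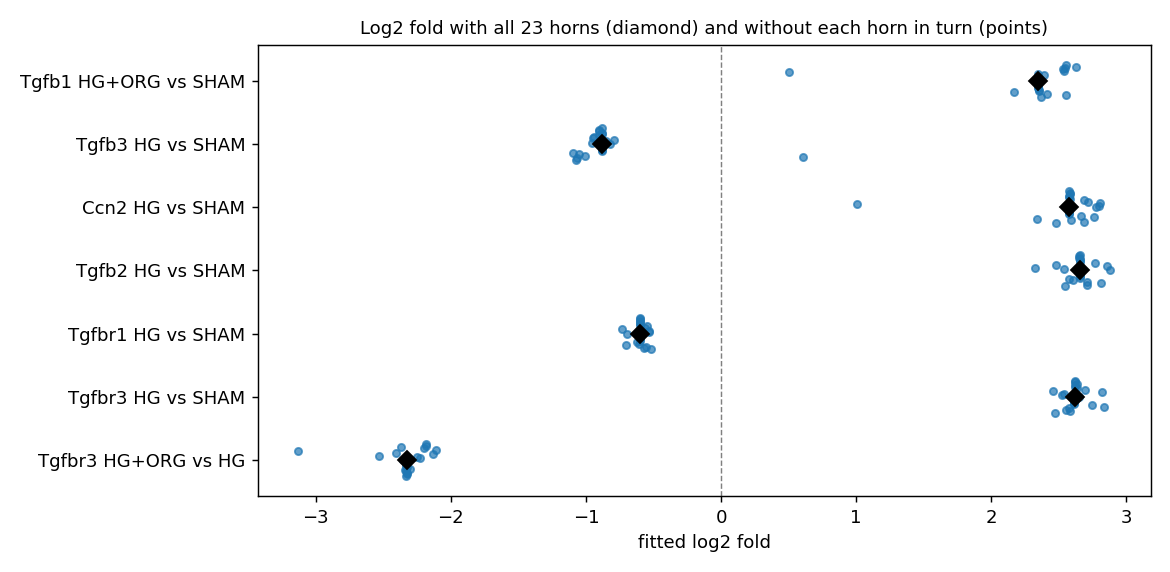
Fitted edgeR log2 fold of 7 gene and comparison pairs with all 23 horns (diamond) and with each horn left out in turn (points). The log2 fold of Tgfb1 falls to 0.50, that of Ccn2 to 1.01 and that of Tgfb3 turns to 0.61 when 1 horn is left out, while Tgfbr3 for HG against SHAM stays between 2.45 and 2.84.

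Values of some receptors and ligands varied with cell type markers over the horns. Between HG and SHAM, 7 of 8 stroma markers and 9 of 9 smooth muscle markers had folds above 0, with median log2 folds of 2.83 and 3.73, and 5 and 9 of them had an unadjusted p under 0.05 in edgeR, against 11.3% of all genes. The 5 became 3 without SHAM 1 or 2 or HG 13, 14 or 16. Markers of other cell types were higher too: 7 of 7 endothelial, 4 of 4 tested T and NK cell and 5 of 5 erythrocyte markers had such a p, all with folds above 0. The T and NK cell count was 1 without HG 14. The erythrocyte count was 0 without HG 15 and 3 without HG 16 or any SHAM horn but SHAM 2. Of 8 macrophage markers 1 had such a p, and of 7 epithelial markers 0, though all 7 epithelial folds were below 0. Without HG+ORG 18, 3 of 8 macrophage markers, all higher, and 3 of 7 epithelial markers, all lower, had such a p. The share over all genes was then 15.5%. Over the fits that each left out 1 horn, the macrophage count ran from 0 to 3. Between HG+ORG and HG, 6 of 8 stroma and 9 of 9 smooth muscle markers had folds below 0. Of all genes, 55.7% had folds above 0 there. In these lists 2 and 7 markers had an unadjusted p under 0.05, against 9.81% of all genes. All 7 endothelial folds were below 0 and all 8 macrophage folds above 0, with 1 and 6 such p. Without HG+ORG 18, such p were held by 3 stroma, 9 smooth muscle, 7 endothelial and 0 macrophage markers, against 12% of all genes. Endothelial markers (7 genes) summed to 54.7 to 613 CPM in HG and 11.2 to 88.0 in SHAM. A score per horn, the mean log2 CPM of a marker list, was set against each of the 10 genes for stroma, smooth muscle and macrophages, which made 30 relations. Their permutation p came from shuffles of all horns that ignored the groups, so differences between groups also enter them.

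Tgfbr3 followed the stroma score over 23 horns with Pearson's r of 0.87 and Spearman's rho of 0.89 (both permutation p 1e-05, the smallest that the permutations can give, and 7.5e-05 and 0.00015 adjusted over the 30). Without the 2 horns farthest from the median score, PBS 8 and PBS 9, r was 0.93. Within groups of 6 it was 0.98 in SHAM, 0.78 in HG and 0.96 in HG+ORG. SHAM 5 and SHAM 6, whose counts were the most alike of any pair within a group, had scores of 6.01 and 5.71. The other SHAM horns had 3.80 to 4.54. Tgfbr3 was 11.8 and 10.1 CPM in SHAM 5 and 6 and 3.32 to 6.17 in the others, and r without this pair was not computed. Tgfb2 followed the stroma score with r of 0.85 and rho of 0.75 (permutation p 1e-05 and 9e-05, adjusted 7.5e-05 and 0.0006). Without PBS 8 and PBS 9 its r was 0.79. Within groups its r was -0.21 in SHAM, 0.84 in HG and 0.68 in HG+ORG, so the relation did not hold within SHAM. Both genes also followed the smooth muscle score, Tgfbr3 with r of 0.79 and rho of 0.74 (permutation p 1e-05 and 0.0001, adjusted 7.5e-05 and 0.0006) and Tgfb2 with r of 0.77 and rho of 0.74 (3e-05 and 8e-05, adjusted 0.00018 and 0.0006). Within SHAM, HG and HG+ORG that r was 0.61, 0.35 and 0.62 for Tgfbr3 and 0.57, 0.61 and 0.42 for Tgfb2.

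Tgfbr1 ran against the stroma score, with r of -0.53 and rho of -0.56 (permutation p 0.00989 and 0.00619, adjusted 0.033 and 0.0169). Within HG its r was -0.97, while it was -0.28 in SHAM and 0.30 in HG+ORG, so the direction was not shared by the groups. Ccn2 followed the stroma score with r of 0.60 and rho of 0.69 (permutation p 0.00282 and 0.00049, adjusted 0.0121 and 0.00245), and its r was 0.43 in SHAM, 0.70 in HG and 0.98 in HG+ORG. Tgfb1 followed the macrophage score with r of 0.92 and rho of 0.84 (both permutation p 1e-05, adjusted 7.5e-05 and 0.00015). Without HG+ORG 18 and PBS 8 its r was 0.81, and within groups it was 0.77 in SHAM, 0.56 in HG and 0.95 in HG+ORG. Tgfb2 also followed the macrophage score, with r of 0.64 and rho of 0.60 (permutation p 0.00082 and 0.00292, adjusted 0.0041 and 0.0109). Its r was 0.49 without those 2 horns, and within groups it was -0.48 in SHAM, 0.20 in HG and 0.92 in HG+ORG. By rank, Tgfb3 followed the smooth muscle, stroma and macrophage scores, with rho of 0.65, 0.57 and 0.56 (adjusted permutation p 0.00549, 0.0169 and 0.0169). Its r were 0.41, 0.47 and 0.50 (adjusted 0.0965, 0.0659 and 0.0659). Within SHAM its r was -0.28 with stroma and -0.62 with macrophages. Tgfbr2 followed the smooth muscle score with r of 0.54 and rho of 0.47 (adjusted permutation p 0.0275 and 0.0573). The PBS group, with 5 horns, is too small for a value of its own. The part of tissue makeup in the group differences was not tested beyond the fit with the smooth muscle score.

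**Figure D4:**
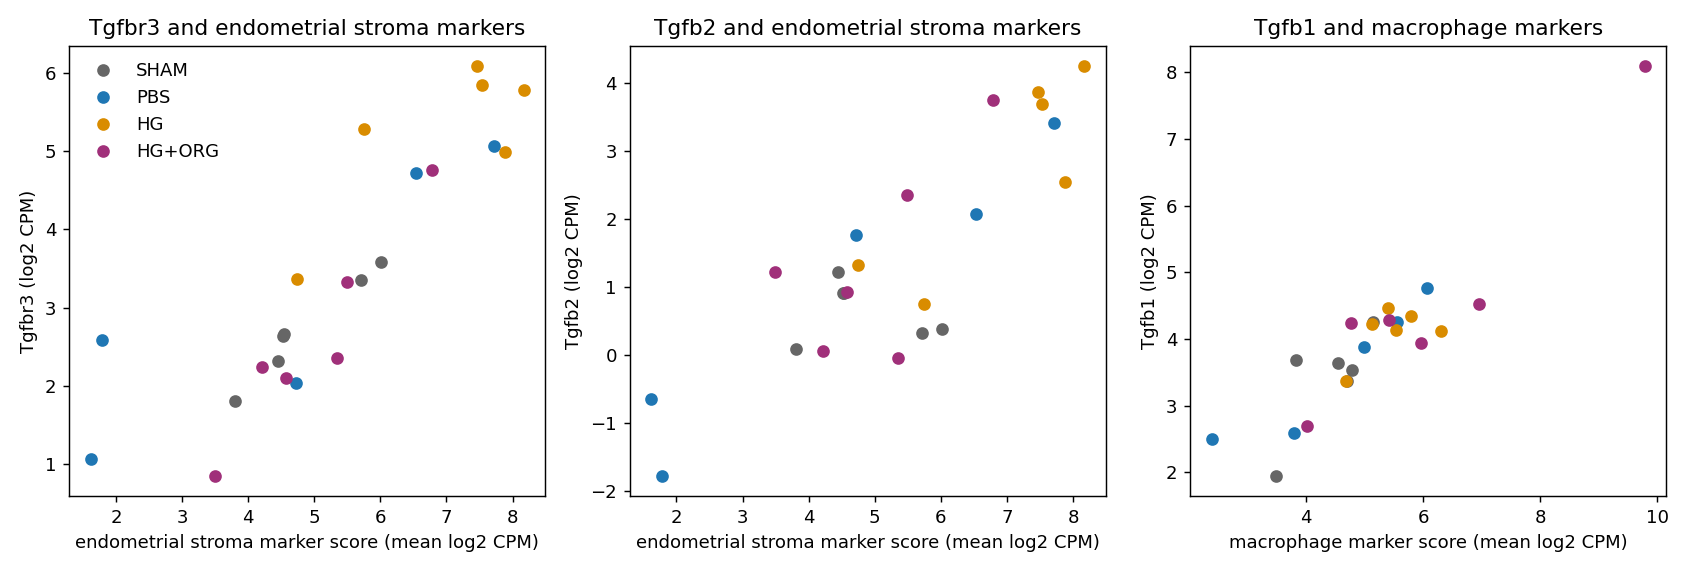
Log2 CPM of Tgfbr3 and Tgfb2 against the stroma marker score and of Tgfb1 against the macrophage marker score, each score being the mean log2 CPM of its markers, with 1 point per horn coloured by group. Tgfbr3 climbs with the stroma score over the horns (r 0.87 over all 23), and within SHAM, HG and HG+ORG, and HG+ORG 18 stands at the upper right for Tgfb1.

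The hydrogel horns were not alike. HG 13, 14, 16 and 17 had stroma scores of 7.46 to 8.17, and HG 12 and HG 15 had 5.75 and 4.74, within the SHAM range of 3.80 to 6.01. In the first 4 horns Tgfbr1 lay at 61.1 to 70.0 CPM, Tgfb2 at 5.63 to 18.7 and Ltbp2 at 0.143 to 4.11. HG 12 and HG 15 held 106 and 117 CPM of Tgfbr1, 1.52 and 2.34 of Tgfb2, and 29.8 and 37.3 of Ltbp2, all within the ranges of the HG+ORG horns. Tgfbr3 split otherwise, with HG 12 at 38.8 and only HG 15 low at 10.1. The endothelial score, whose relation to Tgfbr3 was not tested, split likewise. It was 4.81 in HG 12, 2.63 in HG 15 and 4.09 to 6.16 in the first 4 horns. In the PBS group the horns 7 and 10, with stroma scores of 6.54 and 7.72, held 26.3 and 33.2 CPM of Tgfbr3. The other 3, with stroma scores of 1.62 to 4.72, held 1.93 to 5.86. Endothelial scores were 5.31 and 5.69 in PBS 7 and 10 and -0.89 to 0.83 in the other 3. These horns were singled out after their values were seen and are described without a test.

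Across the 23 horns some of the 10 genes ran together. Tgfb2 and Tgfb3 had a Spearman rho of 0.83, Tgfbr1 and Ltbp2 0.76, and Tgfbr3 and Ccn2 0.71. The most negative pair was Tgfbr1 and Tgfbr3, at -0.59. Tgfbr2 reached at most 0.55, with Tgfb2, and Ltbp3 at most 0.40, with Ltbp2. These and the following values are descriptions over horns that share libraries and tissue makeup.

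The genes most like each of the 10 over the 23 horns were sought by Spearman rho among 15821 genes with a symbol and a mean of at least 1 CPM. Tgfb1 was nearest to Ifi207 (0.91), an interferon-inducible gene, Tyrobp (0.89), a myeloid adaptor, and Igsf6 (0.89). Tgfb2 was nearest to Scarf1 (0.94), an endothelial scavenger receptor, Ptgis (0.91), the prostacyclin synthase, and Sntb2 (0.91). Tgfb3 was nearest to Acvrl1 (0.93), a type I receptor of endothelium that also serves this family, Ehbp1l1 (0.92) and Kalrn (0.90).

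Tgfbr1 was nearest to Lasp1 (0.90), Galc (0.90) and Lamp1 (0.89), the last 2 being lysosomal. Tgfbr3 was nearest to Sspn (0.96), a membrane protein of muscle and stroma, Col4a2 (0.93), a basement membrane collagen, and Epdr1 (0.93). Ccn2 was nearest to Cpt1c (0.89), Gng11 (0.88) and Tm4sf1 (0.87), and Ltbp2 to AI427809 (0.95), Parp8 (0.92) and Ube2l6 (0.92). The nearest genes had lower rho for the other 3: Adamts4 (0.83), Bcl3 (0.79) and Pik3cg (0.78) for Tgfbr2, Kcnh2 (0.76), Isoc1 (0.74) and Rgma (0.73) for Ltbp1, and Lrrc27 (0.81), Mblac2 (0.75) and Tbc1d19 (0.74) for Ltbp3.

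The rest of the pathway was read from 4 lists. Of 16 genes that store or activate latent TGF-beta, edgeR called 0 in every comparison, and 8 had an unadjusted p under 0.05 between HG and SHAM, all of them higher in HG, against 11.3% of all genes in either direction and 9.15% higher. That count fell to 4 without SHAM 1 or HG 14 and to 5 without SHAM 4. The median log2 fold of that list was 1.85, against 0.00 over all genes, and 10 of 16 folds were above 0, against 50.2%. The list shares Dcn with the stroma markers. DESeq2, which gave 14 of the 16 a p-value, called Ltbp4 there.

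Ltbp4, a latent binder of elastic matrix that was not among the 10, had its highest median in HG, as had Tgfbr3. SHAM horns held 26.3 to 43.8 CPM with a median of 34.7, and the PBS horns 7 to 11 held 171, 14.2, 19.3, 184 and 39.8. HG horns held 60.8 to 193 CPM with a median of 134, and HG+ORG horns 17.2 to 77.3 with a median of 32.7. All 6 HG horns lay above all 6 SHAM horns, where 1.43% of all genes had these groups free of overlap. Ltbp4 was named for its small any-group p within its list, so this separation is not independent of that choice. Ltbp4's log2 fold was 1.86 (SE 0.51) for HG against SHAM and -1.78 (SE 0.51) for HG+ORG against HG, with adjusted p of 0.248 and 0.270 by edgeR and 0.0313 and 0.0473 by DESeq2. The DESeq2 calls held in 14 and in 7 of 23 fits that each left out 1 horn, and the adjusted p reached 0.128 without HG 14 and 0.161 without HG 16. With the smooth muscle score as a covariate they were 0.71 and -0.65.

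Thbs1 encodes thrombospondin 1, which frees TGF-beta from its propeptide, and it stood out in the same horn as Tgfb1. It stood at 3346 CPM in HG+ORG 18 and at 27.4 to 226 in the other 22 horns. Its log2 fold between HG+ORG and SHAM was 3.49 (SE 0.97), with an adjusted p of 0.215 by edgeR, and 0.11 without that horn. Between HG+ORG and SHAM, DESeq2 called Nrros, which anchors latent TGF-beta on myeloid cells, and the proteoglycan Bgn, named after their values were seen. Nrros stood at 219 CPM in HG+ORG 18 and at 3.63 to 13.3 in the other HG+ORG horns, and Bgn at 1087 against 7.09 to 117. Without that horn the edgeR log2 fold of Nrros was 0.98 and that of Bgn 1.39, and DESeq2's adjusted p went from 0.0121 and 0.0296 to 0.9998 for both. Over the whole list 5 of 16 genes had an unadjusted p under 0.05 between HG+ORG and SHAM, against 9.91% of all genes, and 0 had without HG+ORG 18, against 3.44%.

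The response list held 17 genes, of which 16 were tested. Between HG and SHAM 13 of 16 folds were above 0, against 50.2% of all genes, with a median log2 fold of 2.19 against 0.00. In that comparison 7 had an unadjusted p under 0.05, all higher in HG, against 11.3% of all genes and 9.15% higher, while edgeR called 0 after adjustment. The 7 became 3 without SHAM 1 or 2 and 4 without SHAM 4 or 6 or HG 13, 14 or 16. DESeq2 called 1 of the 14 it gave a p-value, Acta2, a smooth muscle and myofibroblast actin named after its value was seen. Its DESeq2 call held in 20 of 23 fits that each left out 1 horn, and with the smooth muscle score as a covariate its edgeR log2 fold turned from 4.33 to -0.25. The list shares Col1a1 and Col3a1 with the stroma markers. Between HG+ORG and SHAM 15 of 16 folds were above 0, against 56.3% of all genes, with a median log2 fold of 1.80 against 0.06, and 5 had an unadjusted p under 0.05, against 9.91%. These counts rested on HG+ORG 18. Without it 10 of 16 folds were above 0, against 51.4% of all genes, the median log2 fold was 0.28, and 0 genes had such a p, against 3.44%. With HG+ORG 18 kept, the count of 5 became 8 without PBS 8 or without HG+ORG 19, 20, 22 or 23. Timp1, a metalloproteinase inhibitor, was at 691 CPM in HG+ORG 18 and at 1.62 to 33.4 in the others, and its log2 fold went from 3.10 (SE 1.05) to -0.43 without it. Tnc, the matrix protein tenascin C, was at 309 CPM there and at 0.149 to 27.8 elsewhere, and its log2 fold went from 5.00 (SE 1.56) to 0.29.

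The SMADs and their feedback regulators, 12 genes, had small folds. Between HG and SHAM 1 of 12 folds was above 0, against 50.2% of all genes, with a median log2 fold of -0.18. Only Tgif1, a corepressor of SMADs, had an unadjusted p under 0.05 in edgeR there, which is 1 of 12, against 11.3% of all genes. That count was 0 without SHAM 1 or 3 or HG 13, 14, 16 or 17, and 2 without SHAM 5. Tgif1 had a log2 fold of -0.68 (SE 0.29) and an adjusted p of 0.368 by edgeR. Its median was 191 CPM in SHAM, 175 in PBS, 108 in HG and 191 in HG+ORG, and the ranges of the groups overlapped. Skil, another corepressor, had a log2 fold of -0.54 (SE 0.30). Neither edgeR nor DESeq2 called any of the 12 in any comparison.

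Of the 4 co-receptors and decoys, Eng, an endothelial co-receptor, had a log2 fold of 3.23 (SE 1.26) between HG and SHAM, with an adjusted p of 0.318 by edgeR. HG horns held 10.3 to 113 CPM of Eng with a median of 62.1, and SHAM horns 1.51 to 14.3 with a median of 5.48. With the smooth muscle score as a covariate that log2 fold was 1.00. Bambi, a decoy receptor without kinase activity, had a log2 fold of 0.23 (SE 0.59) there. No member of the 4 was called by edgeR or DESeq2 in any comparison.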

How the data were processed

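RNA of the endometrium of 23 mouse uterine horns was prepared as stranded poly(A) libraries and sequenced single-end, per the labels' protocols. The authors deposited raw read counts per gene. The submitters' processing notes name the tools HISAT2 2.2.1, featureCounts 2.0.3 and build GRCm39, besides Trimmomatic 0.39 and DESeq2 1.42.1. Which strand setting and annotation release were used is not given in the sources at hand here, so overlapping antisense genes may share reads. Reads of human organoid cells are not told apart from mouse reads. All features had at least 10 counts in at least 3 libraries, 18341 of 18682 had a symbol, and no count column lay outside the samples. Depth was 7920918 to 14902952 counts per library.

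Groups came from the library titles. edgeR 4.0.16 (R 4.3.3) was run on the counts with TMM factors. Of the features, 17708 passed filterByExpr by group, all 10 genes among them, and 974 did not. All groups entered 1 quasi-likelihood fit, with 6 contrasts and a test over 3 contrasts at a time, and Benjamini-Hochberg adjustment over all features at 0.05. SE was taken as the size of the log2 fold divided by the root of F. CPM and log2 CPM used library sizes multiplied by the TMM factors, and log2 CPM used a prior count of 2. Levels per kilobase used exon lengths of GENCODE M21 on build GRCm38. Alternatives were DESeq2 1.42.0, limma-voom (limma 3.58.1), no low-count filter, upper-quartile factors, a smooth muscle score as covariate and each horn left out, and, chosen after seeing the data, DESeq2 with each horn left out and the lists' counts with each horn left out. Statistics were tested on simulated data. SHAM 5 and SHAM 6 were the most alike pair (chi-square over its degrees of freedom 2.76, next pair 16.5) and were kept as separate horns. The 10 genes are named throughout. Pathway genes are named as the 2 of each list with the smallest p over all groups, and like genes as the 3 highest by rho. Genes and lists were chosen with earlier results of these data known.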

Additional observations from a re-analysis of the deposited data

Results flagged for a closer look

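Of 40 sets, each 1 gene in 1 group, 4 had a horn far from the others, which was its gap to the nearest horn measured against the whole range of log2 CPM. Chance alone gives about 1 in 20 such sets. Tgfb1 in HG+ORG 18 stood at a log2 CPM of 8.09 (272 CPM), in the horn that also held 21171 CPM of macrophage markers and only 830 CPM of epithelial markers; without it the Tgfb1 log2 fold of HG+ORG against SHAM was 0.50. Tgfb1 in HG 15 was low at a log2 CPM of 3.37 (10.2 CPM), in the HG horn with the lowest stroma and macrophage scores. Tgfb3 in SHAM 3 stood at 6.35 (81.6 CPM), and without this horn the Tgfb3 log2 folds against SHAM changed sign. Ccn2 in SHAM 4 was low at 1.01 (1.85 CPM), in the horn with the lowest SHAM macrophage score, and that horn also held the lowest SHAM values of Tgfb1, Tgfbr1, Ltbp2 and Ltbp3.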

How the results depend on the processing

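No paired analysis was possible because the labels do not tie horns to mice. The horn numbers run on through the groups, so they cannot show whether horns of different groups share an animal. The count of genes called by edgeR was 0 in every comparison, and remained 0 without the low-count filter, with limma-voom, with upper-quartile factors and with the smooth muscle covariate. DESeq2 called 1 gene for PBS against SHAM, 281 for HG against SHAM, 83 for HG+ORG against SHAM, 162 for HG+ORG against HG and 278 among any groups; the cause of the gap to edgeR was not tested. Leaving out each horn gave 0 to 1 genes for HG+ORG against HG (1 without PBS 10) and 0 to 39 for any group (39 without HG+ORG 22, none of them among the 10 genes). Of 2045 alternative values of the 10 genes 43 changed direction, 32 of them with a horn left out, in 19 gene and comparison pairs. The 2045 include adjusted p of the any-group test, which have no direction. They also include the DESeq2 fits of Tgfb2 and Tgfbr3 with each horn left out, chosen after seeing the data. With the smooth muscle covariate Tgfb1 turned to -0.079 (PBS against SHAM), -0.28 (HG against SHAM) and -0.20 (HG against PBS), Tgfb2 to 0.30 (HG+ORG against HG), Tgfb3 to -0.031 (HG against PBS), Tgfbr2 to -0.16 and Ltbp1 to -0.059 (both HG against SHAM). With limma-voom Tgfb3 turned to 0.10 (HG against SHAM) and -0.10 (HG+ORG against HG), Tgfbr3 to -0.25 (HG+ORG against SHAM) and Ltbp3 to -0.00062 (HG against PBS). The cause was not tested. With each horn left out, log2 folds ran as follows. Against SHAM, PBS ran from -0.043 to 0.52 for Tgfb1, -1.58 to 0.15 for Tgfb3, -0.17 to 0.0099 for Tgfbr1 and -0.19 to 1.274 for Ltbp2; HG from -1.09 to 0.61 for Tgfb3; and HG+ORG from -0.92 to 1.01 for Tgfb3, -0.13 to 0.17 for Tgfbr1 and -0.50 to 0.51 for Tgfbr3. Against PBS, HG ran from -0.18 to 0.090 for Ltbp1 and -0.10 to 0.11 for Ltbp3, and HG+ORG from -0.81 to 0.98 for Tgfb2, -0.051 to 0.26 for Tgfbr1, -0.10 to 0.17 for Tgfbr2, -0.14 to 0.067 for Ltbp3 and -0.45 to 0.67 for Ccn2. HG+ORG against HG ran from -0.11 to 2.02 for Tgfb1, -0.012 to 0.59 for Tgfb3, -0.15 to 0.046 for Ltbp3 and -2.36 to 0.0016 for Ccn2. Tgfb2 at 0.135 CPM in PBS 8 and Ltbp2 at 0.143 in HG 14 rest on 2 counts each, so depth limits them.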
